A study of Mus musculus with 24 samples.

Results

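The genes described are 7 transcription factors of heart development, Gata4, Gata6, Nkx2-5, Tbx5, Tbx20, Hand1 and Hand2. They were taken by name, as every probe of a 1-color Agilent mouse array whose RefSeq accession belongs to them. This gave 9 probes of the 55681 on the array and 7 of the 21368 genes named on it. The arrays held RNA of the heart, liver, brain and skeletal muscle of 6 male mice, with 1 array for each mouse and tissue and 24 arrays in all. Of the mice, 3 were wild type (WT, RAP1 WT in the labels) and 3 carried the Rap1 I312R knock-in (KI, RAP1 MUT in the labels). The paper describes its array comparison as one of homozygous knock-in (KI/KI) mice with WT littermates. The knock-in exchanges 1 amino acid of RAP1, a protein of the telomere cap that also acts on transcription elsewhere in the genome, and was made with CRISPR/Cas9 and crossed back to C57BL/6N mice (C57BL6 in the labels) 4 times. WT1 and KI1 were 5 months old, and WT2, WT3, KI2 and KI3 were 2 months old. RNA was made from homogenized tissue, so that fewer cells of a type and less RNA per cell cannot be told apart. The paper's methods do not state which part of each organ was taken for the arrays.

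These proteins read short DNA motifs and together switch on the genes of heart muscle. GATA4 and GATA6 are zinc finger proteins, NKX2-5 is a homeodomain protein, TBX5 and TBX20 are T-box proteins, and HAND1 and HAND2 are basic helix-loop-helix (bHLH) proteins. They bind DNA side by side and also bind each other, and loss of their function is a known cause of congenital heart defects. GATA4, GATA6 and HAND2 are also known from other organs, among them the liver, where GATA4 is made in sinusoidal endothelium and stellate cells, and TBX5 also marks the forelimb. Hand2os1, a long noncoding RNA also called upperhand, is transcribed away from Hand2 on the opposite strand.

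A level is the log2 ratio of a probe's intensity to the intensity that 75% of the probes on its array do not exceed: 0 means as bright as that, and each step of 1 is a change by a factor of 2. A level is given here against other levels of the same probe only, because probes differ in brightness. Over the 24 arrays this reference ran from 470.7 to 1389 intensity units, and 56.5% to 72.7% of the probes were well above background. The tissues carried their own markers. The 6 cardiomyocyte markers had mean levels of 8.0 to 8.62 in the hearts, and all of them were above background there. The 5 hepatocyte markers had 8.35 to 9.31 in the livers, the 5 neuron markers 4.79 to 5.64 in the brains and the 7 skeletal muscle fibre markers 6.16 to 6.49 in the muscles. The lists were not confined to these tissues. All 5 hepatocyte markers were above background on every heart array, at mean levels of -1.35 to 1.67, and 4 to 5 of them were on every muscle array. Terf2ip, which encodes RAP1, had mean levels of 1.39 in WT and 0.98 in KI hearts, 1.6 and 1.71 in the livers, 1.5 and 1.48 in the brains and 1.41 and 1.13 in the muscles. The knock-in changes bases of the transcript but does not remove it, and whether they lie under the probe was not examined, so these levels do not check the genotype. Arrays of the livers were on 1 slide, hearts and livers shared no slide, and RNA of heart and muscle was made with another kit than RNA of brain and liver.

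The windows around the transcription start are shown for the genes with the heart level nearest to the liver (Hand2) and with levels in the heart but little elsewhere (Nkx2-5, Tbx20), and because Hand2 and Hand2os1 share theirs. RefSeq sequences (GRCm38.p6, 250 bases before to 50 bases after the start) were listed for 3 of the 7 genes, Hand2, Nkx2-5 and Tbx20. Capitals mark, on either strand, the letters GATAA read by GATA factors, AAGTG read by NKX2-5, AGGTGT read by T-box factors, CATCTG, an E-box read by HAND proteins, and TATAAA, the TATA box. No match overlapped another.
Hand2, chr8:57320733-57321032, + strand: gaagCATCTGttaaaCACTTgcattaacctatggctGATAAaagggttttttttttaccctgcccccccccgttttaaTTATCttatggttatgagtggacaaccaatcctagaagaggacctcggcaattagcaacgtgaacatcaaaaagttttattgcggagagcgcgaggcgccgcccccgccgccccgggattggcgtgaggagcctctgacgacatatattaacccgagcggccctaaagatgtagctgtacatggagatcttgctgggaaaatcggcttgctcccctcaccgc
Nkx2-5, chr17:26841516-26841815, - strand: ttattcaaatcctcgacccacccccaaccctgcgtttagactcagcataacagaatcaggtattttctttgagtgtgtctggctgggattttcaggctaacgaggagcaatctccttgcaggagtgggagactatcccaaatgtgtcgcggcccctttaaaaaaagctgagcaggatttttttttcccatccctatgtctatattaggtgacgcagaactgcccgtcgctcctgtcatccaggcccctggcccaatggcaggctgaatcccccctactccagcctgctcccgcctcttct
Tbx20, chr9:24774254-24774553, - strand: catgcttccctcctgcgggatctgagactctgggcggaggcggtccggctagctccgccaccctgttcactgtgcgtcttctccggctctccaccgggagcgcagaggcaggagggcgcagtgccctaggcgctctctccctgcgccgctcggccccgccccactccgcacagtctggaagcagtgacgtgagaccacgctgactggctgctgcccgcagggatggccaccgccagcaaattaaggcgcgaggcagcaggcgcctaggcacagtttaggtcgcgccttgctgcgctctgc
The Hand2 window held 4 matches, GATAA on the gene's strand at 214 and on the opposite strand at 172 bases before the start, AAGTG on the opposite strand at 235 bases and CATCTG at 246 bases. The windows of Nkx2-5 and Tbx20 held 0 matches to the 5 motifs. Among all 32851 promoter windows of this length, 25.4% held GATAA, 46.4% AAGTG, 13.7% AGGTGT, 17.2% CATCTG and 13.6% TATAAA, and a match is a description of letters, not of a bound site. GC content was 50.3% in the Hand2 window, 51.7% in that of Nkx2-5 and 68.3% in that of Tbx20, against a median of 52.7% over all windows, and they held 17, 9 and 26 CpG dinucleotides against a median of 7. The window of Hand2os1 (chr8:57320810-57321109, - strand) shares 223 bases with that of Hand2, and 124 bases lie between the annotated starts.

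In the heart, 6 of the 7 genes were well above background on all 6 arrays, and Hand1 on none. The 6 genes had their highest levels in the heart in every mouse, and with limma over all 42463 probes tested each of them was higher in the heart than in the liver, the brain and the muscle. The share of all probes called higher in the heart was 32.3% against liver, 39.9% against brain and 21.0% against muscle, and the share with all 6 heart arrays above all 6 arrays of the other tissue was 21.0%, 27.6% and 11.3%. For all 6 genes the heart arrays lay above those of each other tissue without overlap. A gene entered the test by being above background on 3 or more of the 6 arrays of at least 1 tissue. All 6 genes met this in the heart, and Tbx20 met it there alone. Their number is therefore a description of the genes and not a test of the group. The 3 comparisons share the heart arrays. Within slide 2 the fitted difference from the brain was above 0 for all 6 genes, and within slide 3 so was that from the muscle. There the muscle differences of Gata6 and Tbx5, which were above background in every muscle, were 6.24 and 6.07. Of the 6 genes, 5 were higher in the liver than in the brain and 0 lower (45.6% and 33.4% of all probes), 4 higher in the liver than in the muscle and 1 lower (34.9% and 36.3%), and 0 higher in the brain than in the muscle and 5 lower (28.7% and 41.4%). Of these last 5, Gata4 and Hand2 were not above background in either tissue, so their difference has no meaning as a level. Nkx2-5 was above background in 2 brains and 0 muscles and its levels overlapped, so its difference is not read either. The same holds for Tbx5 between liver and brain, with 1 liver and 0 brains above background. Without overlap, 4 lay above the brain in the liver (36.4% of all probes) and 4 above the muscle (26.4%), and 0 lay above the muscle in the brain (21.2%). The genes differed from each other in the tissue that came next: the liver for Gata4, Gata6 and Hand2, the muscle for Tbx5, a weak liver level for Nkx2-5, and none for Tbx20.

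**Figure D1:**
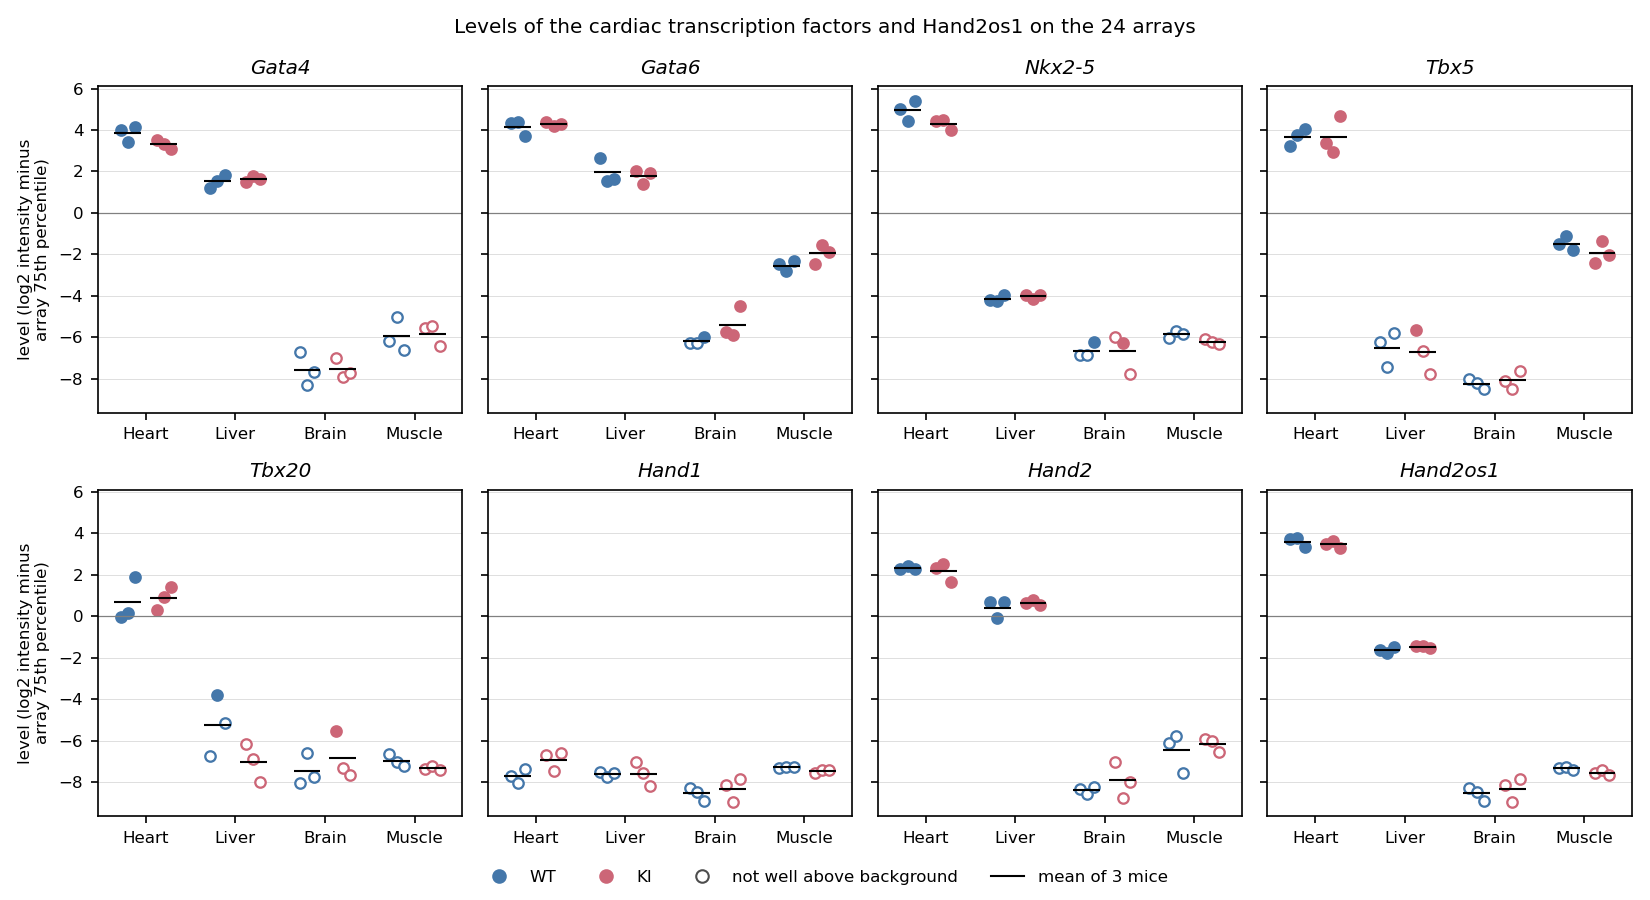
Level of each gene on each array (y axis, log2 intensity minus the 75th percentile of the array) by tissue (x axis), with 1 point per mouse (blue WT, red KI), open points where the probe was not well above background and lines at the mean of 3 mice. Hearts are highest in every panel except for Hand1, which has open points only. Livers follow for Gata4, Gata6, Hand2 and Hand2os1, and muscles for Tbx5.

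Gata4 (NM_008092) had heart levels of 3.99, 3.43 and 4.16 in WT1 to WT3 and 3.52, 3.33 and 3.1 in KI1 to KI3. Its liver levels were 1.19, 1.55 and 1.83 in the WT mice and 1.47, 1.76 and 1.62 in the KI mice. All livers were above background and below all hearts. Heart minus liver was 2.02 on the log2 scale (95% interval 1.41 to 2.62, limma adjusted p = 4.19e-06), a 4.04-fold difference, with 6 of 6 mice in this direction (exact sign-flip test within mice, two-sided p = 0.0312, the smallest that 6 mice can give). In brain and muscle the probe was not well above background on any array. Set against a floor, the lowest signal of any probe above background, the heart was at least 934-fold above the brain and at least 459.7-fold above the muscle. This floor is lenient: the KI1 muscle level of -5.58 was not marked as above background though the floor of that array was -5.99. Folds given as "at least", here and below, are therefore approximate and not strict bounds. The liver was at least 231-fold above the brain and at least 113.7-fold above the muscle. With slide as a block, heart minus liver was 3.04. This block links heart and liver only through the brain arrays, where the probe was at background. The value therefore cannot show what the slide contributes and is a description.

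Gata6 (NM_010258), the other GATA factor of heart muscle, was the member found most widely, above background on 22 of 24 arrays. Its heart levels were 4.33, 4.40 and 3.69 in the WT and 4.37, 4.17 and 4.28 in the KI mice. Livers had 2.67, 1.53 and 1.65 in the WT and 2.01, 1.37 and 1.92 in the KI mice, and muscles ran from -2.82 to -1.53. Heart, liver and muscle each formed a separate range, in this order. Between heart and liver the difference was 2.35 (1.83 to 2.87, limma adjusted p = 8.00e-08), a 5.09-fold difference, and 2.11 with slide as a block. As for Gata4, this block links heart and liver only through the brain arrays, at or near background. The value of 2.11 therefore cannot show what the slide contributes. The heart exceeded the muscle by 6.46 (5.94 to 6.98, limma adjusted p = 1.10e-13), or 88.1-fold. In the brain, 4 of 6 arrays were above background, at levels from -6.01 to -4.52, and the brain was below the muscle (-3.54, limma adjusted p = 2.10e-10). Gata6 was the only member above background in more than 2 brains.

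Hand2 (NM_010402), which encodes a bHLH factor of the right ventricle, of sympathetic neurons and of mesenchyme, had a pattern close to that of Gata4. Its heart levels were 2.28, 2.44 and 2.27 in the WT and 2.34, 2.54 and 1.67 in the KI mice, and its liver levels were 0.68, -0.10 and 0.69 in the WT and 0.66, 0.81 and 0.53 in the KI mice. The lowest heart, that of KI3, was still above the highest liver. The heart exceeded the liver by 1.71 (1.09 to 2.33, limma adjusted p = 4.42e-05), a 3.27-fold difference seen in 6 of 6 mice. With slide as a block the difference was 2.56, which rests on brain arrays at background, as for Gata4. No brain or muscle array was above background, and the heart was at least 371.1-fold above the brain and at least 189.6-fold above the muscle. Hand1 (NM_008213), its close relative of the embryonic left ventricle, was not well above background on any of the 24 arrays and entered no test.

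Hand2os1 (NR_110474), which starts next to Hand2 on the opposite strand in the window printed above, was found in the same tissues as Hand2. Its heart levels ran from 3.30 to 3.76 and its liver levels from -1.75 to -1.44, and neither brain nor muscle was above background on any array. The heart exceeded the liver by 5.07 (4.73 to 5.42, limma adjusted p = 9.82e-16), or 33.7-fold. Set against Hand2 within each mouse, the step from heart to liver was larger for Hand2os1 by 3.36 ± 0.29 on the log2 scale (SD, n = 6 mice; range 2.98 to 3.73; exact sign-flip test, two-sided p = 0.0312, the smallest possible). The comparison is between the steps of different probes, and any difference in how they respond to the amount of RNA is part of it.

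Beside the liver levels of Gata4, Gata6 and Hand2, the 5 genes of hepatic stellate cells were all above background on every liver array (mean level -0.14 to 0.66), as were the 5 genes of liver sinusoidal endothelium (2.56 to 3.07). The same lists had mean levels of -0.68 to -0.34 and -2.03 to -1.43 in the hearts. Of each, 4 of 5 genes were called lower in the heart than in the liver and 1 higher (34.4% and 32.3% of all probes). On brain and muscle arrays, 3 to 5 genes of the stellate list and 4 to 5 of the sinusoidal list were above background. The lists of endothelium (6 genes), fibroblasts (6) and epicardium and mesothelium (5) were also above background in full on every liver array. Of these, 6, 5 and 5 genes were called higher in the heart than in the liver and 0 lower. The cardiomyocyte markers were at mean levels of -5.28 to -3.87 in the livers, with 2 to 6 of 6 above background. The part of any of these cells in the liver levels was not tested. Tcf21, a bHLH gene of the Hand and Twist family that marks fibroblasts of epicardial origin, had mean levels of 0.39 in the heart and 0.40 in the liver, a difference of -0.01 (adjusted p = 0.98), and was above background on 1 of the 12 brain and muscle arrays.

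Nkx2-5 (NM_008700), an early marker of the heart field, had heart levels of 5.00, 4.44 and 5.41 in the WT and 4.41, 4.49 and 4.02 in the KI mice. The livers were weak and even, from -4.26 to -3.95, but above background on all 6 arrays. The heart exceeded the liver by 8.71 (8.20 to 9.21, limma adjusted p = 1.12e-16), or 417.6-fold. The probe was above background in 2 of 6 brains and in 0 of 6 muscles, and the heart was at least 991.6-fold above the muscle. The liver was at least 2.37-fold above the muscle by the lenient floor, a small fold that a higher floor would reduce. Brain and muscle levels overlapped.

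Tbx5 (NM_011537), which activates atrial, conduction and contractile genes, had heart levels of 3.21, 3.76 and 4.06 in the WT and 3.39, 2.91 and 4.67 in the KI mice. It was the member with skeletal muscle in place of the liver: all 6 muscles were above background, from -2.40 to -1.13, against 1 of 6 livers and 0 of 6 brains. The heart exceeded the muscle by 5.37 (4.61 to 6.13, limma adjusted p = 4.11e-10), or 41.4-fold, the liver, with 5 of 6 arrays at background, was below the muscle (-4.90 as fitted, adjusted p = 3.45e-10), and the muscle was at least 23.8-fold above the brain. The heart was at least 987.1-fold above the brain. Liver and brain levels overlapped.

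Tbx20 (NM_194263), a T-box factor needed by adult heart muscle, was the member with the heart alone. Its heart levels were -0.05, 0.16 and 1.91 in the WT and 0.31, 0.92 and 1.39 in the KI mice, an SD of 0.77 over the 6 hearts. Of the other 18 arrays, 1 liver (WT2) and 1 brain (KI1) were above background and no muscle was. The heart was at least 68.6-fold above the muscle. The fitted differences of 6.89 from the liver and 7.93 from the brain rest on 5 of 6 arrays at background in each and are not exact sizes. Because Tbx20 entered the test through the heart alone, its calls as higher there are a description and not a test. No order is read among liver, brain and muscle, which were at or near background. The other probes of the gene (NM_020496 and NM_001205085) were also above background in all hearts. For NM_001205085, 1 liver was above background, and for NM_020496 none was.

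**Figure D2:**
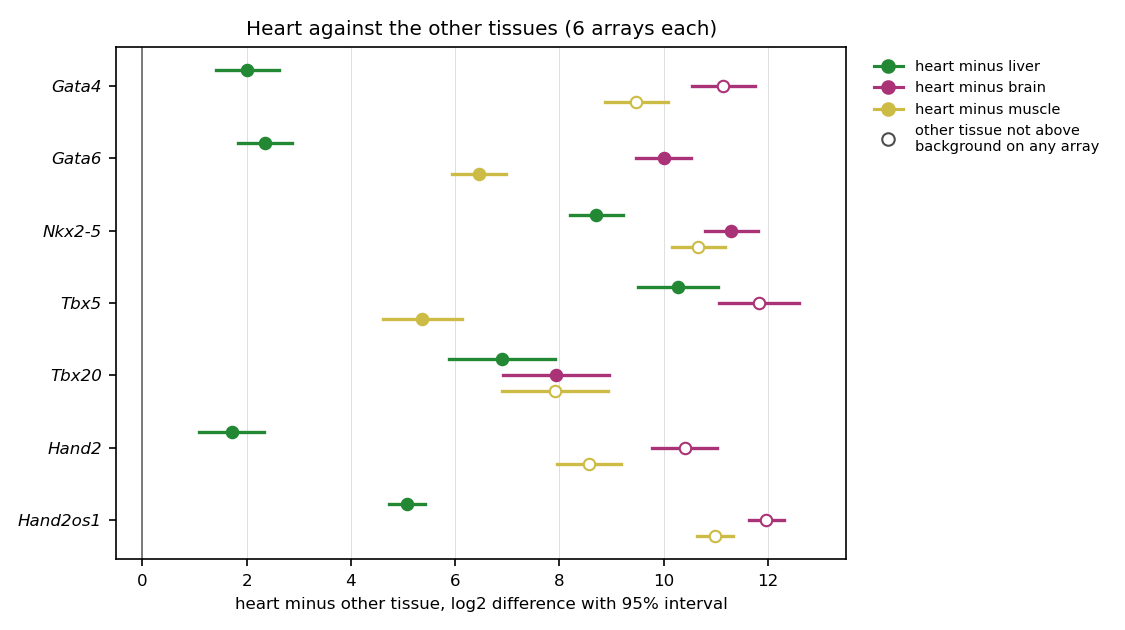
Heart minus liver (green), brain (purple) and muscle (yellow) for each gene (x axis, log2 difference with 95% interval from limma, 6 arrays each), with open points where the other tissue was not above background on any array, so that the fitted value there is not a bound. Gata4, Gata6 and Hand2 have their smallest difference against liver (1.71 to 2.35), and Tbx5 has it against muscle (5.37).

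Correlations over the 24 arrays describe the same division. Gata4 and Hand2 had a Pearson r of 0.996, the highest that either had among 16092 genes above background in the heart, followed for both by Gm19668 (0.98 and 0.98) and Alas2 (0.98 and 0.98), a gene of heme synthesis in red cells. Gata6 was nearest to Ccdc68 (0.99), Rbpms (0.99) and Adamts7 (0.97), and its r with Gata4 was 0.962. Nkx2-5 was nearest to 2210407C18Rik (0.98), the potassium channel gene Kcnq1 (0.98) and Unc93a2 (0.98). Tbx20 was nearest to Nkx2-5 (0.963), the natriuretic peptide gene Nppb (0.96) and Pirt (0.95). Tbx5 was nearest to Ankrd1 (0.99), a stress-induced cofactor of heart muscle, Adprhl1 (0.98) and Fkbp7 (0.98), and its r with Gata4 was 0.541. The arrays share 4 tissues and 6 mice, and levels below background enter them, so these values describe tissue patterns only.

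Other genes of the same families are counted here without the members. Over all probes 34.4% were called lower in the heart than in the liver, 27.7% than in the brain and 22.4% than in the muscle. Of the 4 other GATA genes, 3 were higher in the heart than in the liver and 0 lower, and the remaining gene, Gata5, had mean levels of 0.00 in the heart, 0.62 in the liver, -0.64 in the brain and 0.94 in the muscle and was above background on all arrays. Gata2, a factor of blood and endothelium, exceeded its liver level by 3.54 in the heart (limma adjusted p = 5.64e-14), but its muscle level by 1.28 only. Of the 6 other NK2 genes, 3 were higher in the heart than in the liver and 1 lower, and Nkx2-3 did not pass the test against any tissue (differences of 0.08 to 0.39). Of 12 other T-box genes tested, 7 were higher and 1 lower in the heart than in the liver, and 3 were higher and 5 lower than in the muscle. Tbx3, a repressor of the conduction system, was the one that was lower in the heart than in the liver (-1.32, limma adjusted p = 0.00192), and Tbx2, a related repressor, exceeded its own liver level by 1.6 (adjusted p = 1.65e-06). Of 7 other Hand and Twist genes tested, 6 were higher in the heart than in the liver and 2 higher and 2 lower than in the muscle. Tcf15 had nearly the same mean level in heart and muscle (3.29 and 3.09), and Scx, a tendon and valve gene, was lower in the heart than in the muscle (-0.84, adjusted p = 0.0245).

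**Figure D3:**
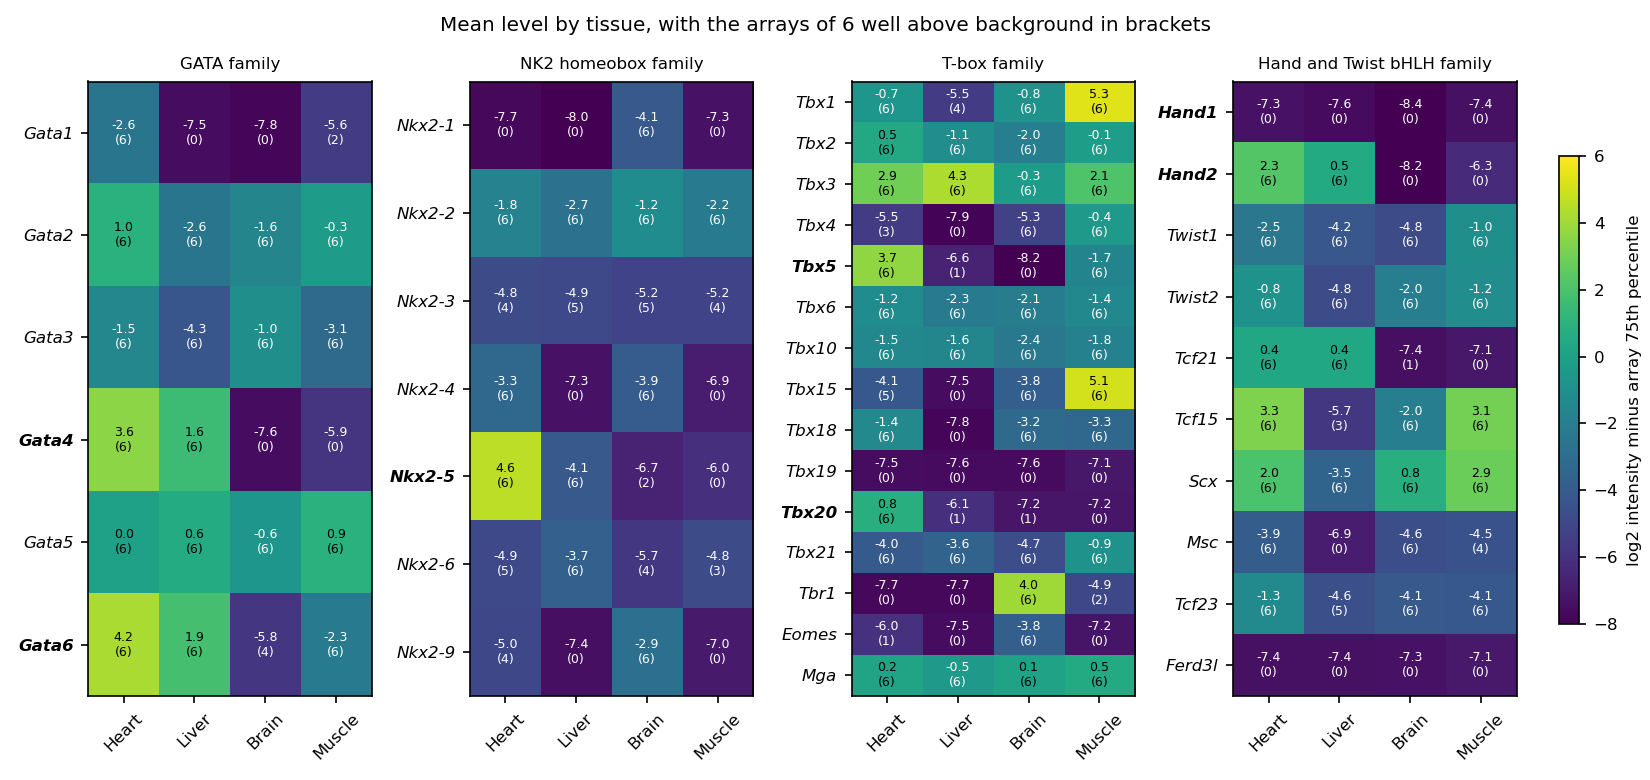
Mean level of 6 arrays by tissue (colour and upper number, log2 intensity minus the 75th percentile of the array) for the genes of 4 families, with the number of the 6 arrays well above background in brackets and members in bold. Colours are to be read along a row, since probes differ in brightness: Gata5 keeps within -0.6 and 0.9, whereas Gata4 runs from -7.6 to 3.6.

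Of 40 other cardiac transcription factors and cofactors tested, 31 were higher and 3 lower in the heart than in the liver, 25 and 7 against the brain, and 19 and 11 against the muscle, with median differences of 2.57, 1.2 and 0.59, beside medians over all probes of 0.00, 0.27 and -0.07. The shares of all probes called higher and lower were 32.3% and 34.4% against the liver, 39.9% and 27.7% against the brain, and 21.0% and 22.4% against the muscle, for this list and the next. Csrp3, an adaptor of the Z-disc, exceeded its liver level by 4.43 in the heart, Ankrd1 by 11.3, Hopx by 1.52 and Tead1, which binds muscle promoters, by 3.30, all with limma adjusted p of at most 1.23e-06. Tead1 did not pass the test against the muscle (-0.20, adjusted p = 0.43). Of 31 heart muscle genes with known binding sites for the factors, 29 were higher and 1 lower in the heart than in the liver, 26 and 1 against the brain, and 25 and 3 against the muscle, with medians of 10.5, 7.10 and 6.29. Myh6, the cardiac myosin heavy chain, exceeded its liver level by 12.3, its brain level by 12.7 and its muscle level by 8.45. The light chain gene Myl3 exceeded its liver level by 12.6, and the actin gene Actc1 exceeded it by 13.7 but its muscle level by 1.01 (adjusted p = 0.18), and Cox6a2 was at the same level in heart and muscle within the error (-0.08, adjusted p = 0.76).

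The question for the knock-in was whether any of these genes differed between KI and WT mice in a tissue. None of the members tested reached an adjusted p under 0.05, in whichever tissue, and no probe of the whole array did: the share called was 0.0% in the heart, the liver, the brain and the muscle. At an unadjusted p under 0.05 stood 0 of the 13 tests of members, against 7.51% of all probes in the heart, 2.13% in the liver, 2.62% in the brain and 2.48% in the muscle. The tests were of 6 members in the heart, 4 in the liver, 1 in the brain and 2 in the muscle. The 1 in the brain, Gata6, met the filter through the KI mice, where it was higher, so its place in this count is a description. With 3 mice against 3, an exact permutation test cannot go below p = 0.1.

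**Figure D4:**
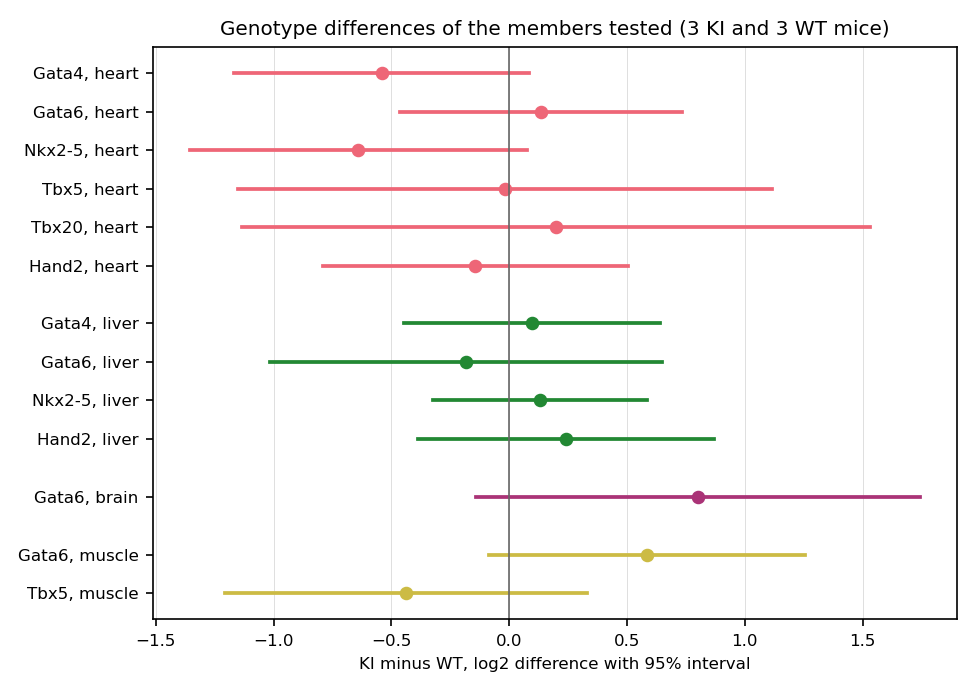
KI minus WT for each member tested (x axis, log2 difference with 95% interval from limma, 3 KI and 3 WT mice), by tissue. All 13 intervals include 0, and those of Tbx5 and Tbx20 in the heart are the widest. That of Gata6 in the brain is a description, since the gene met the filter there through the KI mice.

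In the heart, Nkx2-5 had a mean of 4.95 ± 0.49 in WT and 4.31 ± 0.25 in KI mice (SD, n = 3), a difference of -0.64 (95% interval -1.36 to 0.08, limma adjusted p = 0.65). Gata4 had 3.86 ± 0.38 and 3.32 ± 0.21, a difference of -0.54 (-1.17 to 0.08, adjusted p = 0.65). For both, WT2 lay among the KI hearts and the groups overlapped. They overlapped for the other 4 members too, while 14.7% of all probes tested in the heart had groups that did not. Hand2 differed by -0.14 (-0.79 to 0.50), Gata6 by 0.13 (-0.46 to 0.73), Tbx5 by -0.02 (-1.15 to 1.12) and Tbx20 by 0.20 (-1.13 to 1.53), with adjusted p of 0.89, 0.89, 0.99 and 0.93. These intervals leave room for a doubling in either direction for Tbx5 and Tbx20. Hand2os1 differed by -0.13 (-0.65 to 0.38). The other Tbx20 probes gave 0.79 (NM_020496, adjusted p = 0.68) and 0.14 (NM_001205085, adjusted p = 0.92).

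The 6 hearts were not alike in what else they held. The 8 atrial genes had a mean level of -0.74 in WT1 and of 3.94 to 6.07 in the other 5 hearts, with the highest value in KI3. The 6 fat cell genes were at -4.07 in WT1, at 2.38 in KI1 and at 3.51 in KI3, and from -0.59 to -0.44 in the rest. The 5 genes of epicardium and mesothelium were lowest in WT1 (-0.68) and highest in KI3 (1.87). Among the members, Tbx5 was highest in KI3 (4.67) and low in KI2 (2.91) and WT1 (3.21), Tbx20 was lowest in WT1 (-0.05), and Gata4, Nkx2-5 and Hand2 were lowest in KI3. The part of these other tissues in the genotype differences was not tested. Without WT1, no member passed, and the differences of Nkx2-5 and Gata4 were -0.61 and -0.48. Without KI1 and KI3, chosen after seeing these levels, only KI2 is left against 3 WT hearts, and its values are a description: -0.46 for Nkx2-5, -0.52 for Gata4, -0.76 for Tbx5 and 0.21 for Hand2.

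**Figure D5:**
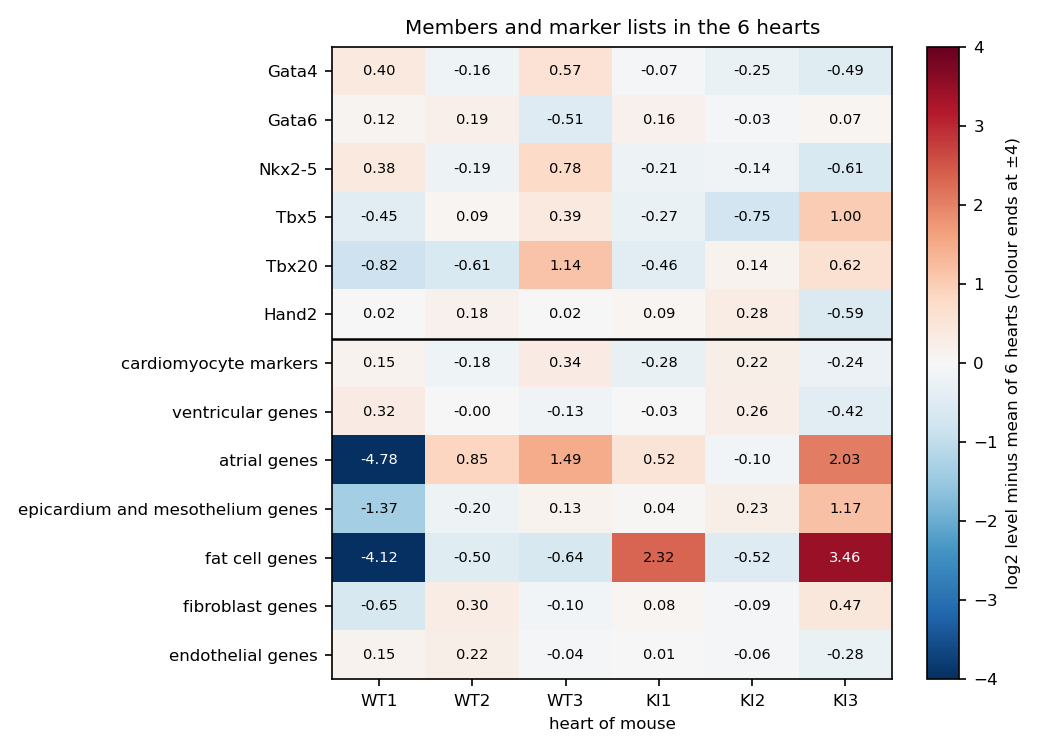
Level in each heart minus the mean of the 6 hearts (colour and number, log2) for the 6 members above background and for the mean of 7 marker lists. WT1 is lowest in the atrial and fat cell genes, KI1 and KI3 are highest in the fat cell genes, and the largest deviation of a member is that of Tbx20 in WT3 (1.14).

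In the liver, the 4 members tested differed by -0.19 to 0.24, within intervals of -1.02 to 0.87, with limma adjusted p of 1.00 each, and the groups overlapped for all 4 (5.85% of all probes did not). In the brain, Gata6 was above background in 1 of 3 WT and in 3 of 3 KI mice, with levels of -6.29, -6.29 and -6.01 against -5.76, -5.90 and -4.52. The gene met the filter of 3 arrays above background through the KI mice, where it was higher, so its brain values are a description. The groups did not overlap, as for 7.74% of the probes tested in the brain. The difference of 0.80 (-0.14 to 1.75, limma adjusted p = 1.00) rested on KI3: without it, the value was 0.36. In the muscle, Gata6 differed by 0.59 (-0.09 to 1.26, adjusted p = 0.94) and Tbx5 by -0.44 (-1.21 to 0.33, adjusted p = 0.94), and the groups overlapped for both, while 6.45% of all probes tested in the muscle did not. The muscle of KI3 also carried transcripts of neurons, with a mean level of the 5 neuron markers of 2.10. Without that mouse, the muscle differences were 0.56 and -0.38.

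Whether the knock-in acted on a member differently in different tissues was tested as the interaction of tissue and genotype over all 24 arrays. The share of probes called was 0.0%, and 2.93% of all probes stood at an unadjusted p under 0.05. No member did, with unadjusted p from 0.105 (Tbx20) to 0.863 (Tbx5) and limma adjusted p of 1.00.

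The lists around these genes also held no call between genotypes in any tissue. In the heart, the 38 other cardiac transcription factors and cofactors tested had a median difference of -0.22, beside -0.02 over all probes, and 6 of them stood at an unadjusted p under 0.05, all lower in KI, beside 2.42% of all probes lower and 5.09% higher at that p: Srf (-0.67), Casz1 (-0.49) and the ventricle and conduction genes Irx1 (-1.69), Irx2 (-1.37), Irx4 (-0.85) and Irx5 (-1.04), each with a limma adjusted p of at least 0.65. The 31 heart muscle genes had a median of -0.16, and 2 stood at an unadjusted p under 0.05, the slow myosin gene Myh7 (-1.81) and the slow troponin C gene Tnnc1 (-0.78). These 8 genes were named after their values were seen. The 5 fat cell genes tested had a median difference of 3.82, and all 5 stood at an unadjusted p under 0.05.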

How the data were processed

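RNA of 4 tissues from 3 WT and 3 KI mice was measured on 24 1-color Agilent arrays. The authors deposited the scanner output of Feature Extraction 12.0.3.1, in which gProcessedSignal is a background-corrected intensity. They also deposited a table of scores, z-scores of the log10 signal over the spots within each array, used here as an alternative. The authors' mutation, mouse ages and tissue kits are given in the labels and methods. Each intensity was taken as log2 and the log2 of the array's 75th percentile over the probes was subtracted, after leaving out 3671 control spots and averaging the spots of a probe. Genotypes were tested for probes that the scanner software marked as well above background in 3 or more of a tissue's 6 arrays, and tissues for probes that met this in any of the 4. limma 3.58.1 (R 4.3.3; lmFit, eBayes) was fitted on all such probes, within a tissue for genotype and on 24 arrays for tissues and the interaction, with Benjamini-Hochberg adjustment and a threshold of 0.05. Exact permutation and sign-flip tests listed every relabelling or sign flip, in Python 3.11.15. Where no array of a tissue was above background, "at least" sets the brighter mean against, per array, the higher of the probe's own signal and the lowest signal of any probe above background. That lowest signal is a lenient limit, since some probes above it were not marked as above background, so these folds are approximate. The planned normexp alternative used the median spot signals, since the mean signals were not given. RefSeq symbols named 28331 of the probes, and the brightest probe represents a gene. All members were described, with the 4 genes of each list with the highest heart level and the 3 genes nearest to each member in pattern. The members and lists were chosen with earlier results of these data known. In simulated arrays of the heart comparison (34823 probes), 2%, 58%, 64% and 88% of changes of 1, 2, 3 and 4 on the log2 scale were recovered. The simulation gave each probe its own independent noise, whereas the real hearts differed in whole sets of genes. In the real hearts the 5 fat cell genes tested differed by 3.32 to 4.33, and 0 were called. The shares are therefore not a measure of what could be found in these hearts. The number of mice limits the precision.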

Additional observations from a re-analysis of the deposited data

How the results depend on the processing

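The counts of members called (0 between genotypes in each tissue and in the interaction, 6 higher in the heart than in each tissue) were within 1.5 times under every alternative run. With no filter the count against the brain was 7, because Hand1, not above background on any array, was then tested. The tissue differences of the 6 members kept their direction and their call under every alternative run, but normexp, which adds an offset of 50, made them smaller (1.66 to 7.54 against the liver, 4.66 to 8.38 against the brain and 3.72 to 7.44 against the muscle). Over 36 pairs of tissues within mice, deviations from the group means had a median correlation of 0.05 (range -0.22 to 0.26, 9 above 0.1). With mouse as a random replicate block (consensus correlation 0.026) the heart exceeded the liver by 2.02 for Gata4, with no call changed. No member was called between genotypes under any alternative, but 18 of the genotype values took the other sign, with a lowest limma adjusted p of 0.82. The largest of them was 0.35 on the log2 scale, for Tbx5 in the heart with 1 mouse left out. Tbx5 in the heart was 0.18 with quantile normalization and 0.017 with normexp, and Nkx2-5 in the liver was -0.080 with normexp, all on the log2 scale. With the z-scores Tbx5 in the heart was 0.0067, in units of the SD of an array's log10 signal, so its size cannot be set beside the others. Without the hearts of KI1 and KI3, chosen after seeing the data, Hand2 was 0.21, a value that rests on 1 KI heart, assumed to vary like the WT hearts. Leaving out 1 mouse at a time gave -0.52 to 0.35 for Tbx5, -0.16 to 0.82 for Tbx20, -0.090 to 0.26 for Gata6 and -0.32 to 0.11 for Hand2 in the heart, and -0.071 to 0.25 for Gata4, -0.39 to 0.17 for Gata6 and -0.019 to 0.37 for Hand2 in the liver. The cause of these changes of sign was not tested. Low signal limits the brain and muscle values of most members to approximate bounds.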
